A study of Homo sapiens with 6 samples.

Results

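MicroRNAs are short RNAs that lower the translation and stability of the mRNAs they pair with, mainly through the seed at bases 2 to 8. RNA polymerase II makes a long primary transcript, DROSHA with DGCR8 cuts the hairpin out in the nucleus, XPO5 exports it, DICER1 trims it, and an Argonaute protein loads the mature strand. Many hairpins sit inside another gene or in a noncoding host transcript, whose symbol then ends in HG. In pancreatic ductal adenocarcinoma (PDAC), miR-21 and the miR-17-92 cluster are known as growth-promoting microRNAs, and let-7 is known to restrain RAS and MYC. The libraries were made with a TruSeq RNA kit, which is built for long RNA, so a count on a microRNA row stands for the precursor or the surrounding transcript and not for the mature microRNA.

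The 61 rows described here are those whose symbol starts with MIR and a digit or with MIRLET7, and they were selected on their total count of 60 or more over the 6 libraries. They comprise 26 host transcripts and 35 microRNA loci, out of 42540 rows in the table and 1937 rows with such a symbol. Of the matching rows, 1215 were at 0 in every library and 661 held 1 to 59 counts. The totals of the members ran from 62 to 13558, with a median of 348. The last rows inside the limit were MIR3652 with 75, MIR600 with 69 and MIR6765 with 62 counts, and the next rows outside were MIR9-1HG with 56, MIR670HG with 55 and MIR378I with 54. Because the total was taken over both groups, 18 members reached 60 counts within the knockdown libraries only and 3 within the control libraries only.

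The cells were MiaPaCa2, a human PDAC cell line of mesenchymal character. They carried CasRx, a Cas13d enzyme that a guide RNA directs to cut transcripts, brought in with a transposon system. Control cells carried CasRx and no guide RNA. Knockdown cells carried CasRx with a guide against PPP2R1A, the scaffold subunit of the phosphatase PP2A. The guide came in a lentiviral vector with a DsRed reporter, followed by puromycin selection. The study describes these steps for the knockdown cells only, so they cannot be told apart from the knockdown. Each group has 3 libraries, numbered 1, 2 and 3, which the study collected over a period of weeks without drug treatment. The study left out knockdown 3 for its weaker knockdown, so the main comparison set knockdown 1 and 2 against control 1 and 2. It places that sample at its latest time point and in the higher passage. Time in culture and knockdown strength therefore cannot be told apart in it. PPP2R1A stood at 590 to 648 CPM (each count scaled to the library total, corrected by TMM) in the controls, at 143 in knockdown 1 and 143 in knockdown 2, and at 545 in the library labelled knockdown 3. The labelled cell line was checked by markers. VIM, ZEB1, KRT8 and KRT18 were present in every library, CDH1, EPCAM and ESRP1 had at most 9 counts, and PTPRC, PECAM1 and ALB were at 0.

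Total counts ran from 28499214 to 45040033 per library, and the members took 0.0307% to 0.0458% of them. The total of the members was 10170 counts in control 1, 10183 in control 2 and 10663 in control 3, against 15222 in knockdown 1, 20313 in knockdown 2 and 13707 in the library labelled knockdown 3. The knockdown libraries were also the deeper ones, apart from knockdown 1, which lay below control 3.

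The counts of most members cannot be read alone, because 47 of the 61 stand on a GeneID, the locus name in the table, that other rows also carry. These are 29 of the 35 microRNA loci and 18 of the 26 host transcripts, and for 32 members the other row is a gene that is neither a microRNA nor a host row. StringTie, which the submitters name, assembles overlapping transcripts into such loci, and the table does not show how reads were divided between their rows. In the GENCODE release 29 annotation of GRCh38, the hairpin lay in a coding exon of the partner in 4 of the pairs that could be placed, in an untranslated or noncoding exon in 17 and in an intron in 7, always on the same strand. A value of 1 was also common, with 248 rows of the table, 95 of them microRNA rows, holding exactly 1 count in each of the 6 libraries. The mature sequences below are those of the loci on which the results turn, from RefSeq on GRCh38.p14, with the seed in capitals.
hsa-miR-4683: uGGAGAUCcagugcucgcccgau
hsa-miR-4453: gAGCUUGGucuguagcgguu
hsa-miR-663a: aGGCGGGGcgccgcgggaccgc
hsa-miR-3648: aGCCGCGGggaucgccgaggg
hsa-miR-23a-3p: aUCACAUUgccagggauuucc
hsa-miR-27a-3p: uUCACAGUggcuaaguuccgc
hsa-miR-24-3p: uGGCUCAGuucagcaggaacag
hsa-miR-21-5p: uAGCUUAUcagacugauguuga

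The seeds of these microRNAs differ from each other. Among the 120 mature sequences carried by the member loci and by the hosts, 12 seeds were shared by several microRNAs. The families below are shown because several members carry them: let-7 in MIRLET7BHG, MIRLET7A3 and MIRLET7A1HG with miR-4458 in MIR4458HG, miR-29 in MIR29A, MIR29B1 and MIR29B2CHG, and miR-4426 with miR-4647 in loci of unrelated genes.
hsa-let-7a-5p: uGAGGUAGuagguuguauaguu
hsa-let-7b-5p: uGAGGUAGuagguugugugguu
hsa-miR-4458: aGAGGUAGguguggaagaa
hsa-miR-29a-3p: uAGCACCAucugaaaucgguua
hsa-miR-29b-3p: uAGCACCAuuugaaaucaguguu
hsa-miR-4426: gAAGAUGGacguacuuu
hsa-miR-4647: gAAGAUGGugcugugcugaggaa
The seed GAGGUAG was held by 5 of the 120 sequences, AGCACCA by 3 and AAGAUGG by 2. For MIR3648-1 and MIR1244-3 no own mature sequence was used.

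Between knockdown 1 and 2 and control 1 and 2, 5 of the 58 members tested were called higher and 2 lower by edgeR's quasi-likelihood test at an adjusted p under 0.05. Over all 15596 rows tested, 7.15% were called higher and 6.41% lower, so the members' counts lay near the background in both directions. With library size alone in place of TMM, the median of all rows moved from 0.01 to 0.15 on the log2 scale and the calls over all rows shifted from 1115 higher and 999 lower to 1406 and 744, while the members still had 5 and 2. The median log2 fold change of the members was 0.25, with 41 above 0 and 17 below. For the 26 host transcripts it was 0.72, with 21 above 0, and for the 32 loci tested it was 0.17, with 20 above 0. The selection on total counts let in 18 members that reached 60 counts within the knockdown libraries only and 3 within the controls only. These medians and signs are therefore not a result about the members. Unadjusted p-values lay under 0.05 for 18 members, 13 of them higher, against 5128 of 15596 rows. Of the members tested, 38 passed the filter on low counts in all 4 libraries, 3 only through the knockdown libraries (MIR210HG, MIR302CHG, MIR29A) and 2 only through the controls (MIR4683, MIR6765). The called row MIR23A was above the cutoff in both knockdown libraries and in 1 control. Of the 7 called members, MIR4453HG, MIR663AHG and MIR23A reached 60 counts within the knockdown libraries only, and MIR4683 within the controls only. MIR4724, MIR4775 and MIR600 did not pass it. With any of control 1, control 2, knockdown 1 or knockdown 2 left out, 0 rows of the whole table were called by edgeR, and the adjusted p of the 7 called members lay between 0.0602 and 0.211. In bulk RNA, fewer cells that carry a transcript and less of it per cell cannot be told apart.

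**Figure D1:**
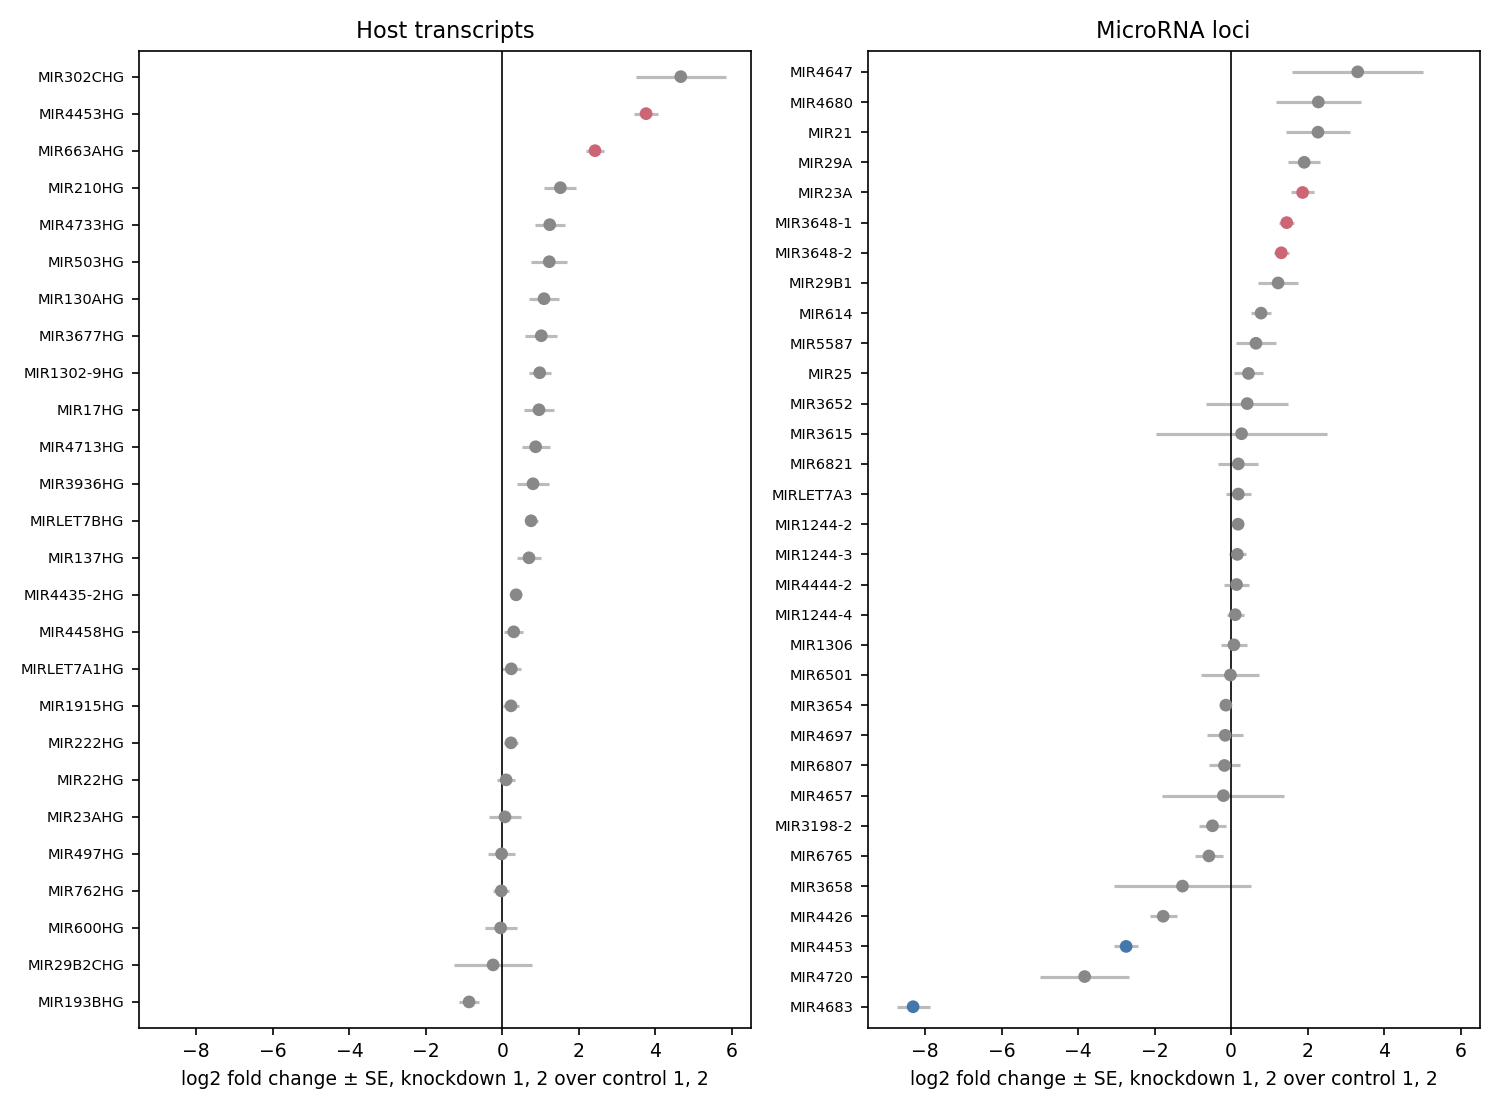
Log2 fold change (horizontal axis) of knockdown 1 and 2 over control 1 and 2 for the 26 host transcripts and the 32 microRNA loci tested, each a point with its standard error as a bar, red where called higher, blue where called lower and grey where not called. Of the host transcripts, 21 lie above 0 and 2 are called, and the loci reach from -8.31 for MIR4683 to 3.31 for MIR4647, whose error bar is wide. The selection on total counts let in more rows through the knockdown libraries only than through the controls only.

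MIR4683 showed the widest difference of the members called. Its hairpin lies on chromosome 10 in the coding exon of FZD8, a Frizzled receptor for WNT ligands, and both rows carry the same GeneID. The row MIR4683 held 202, 288 and 178 counts in control 1, 2 and 3, and exactly 1 count in each of the 3 knockdown libraries. The groups did not overlap. Over numbers 1 and 2 this is 490 against 2 counts, a ratio corrected for depth of 333 with an exact 95% counting interval of 91.6 to 2755. The fitted log2 fold change was -8.31 (SE 0.43, adjusted p = 0.0118 by edgeR). The row passed the filter on low counts only through the controls. Rows with exactly 1 count in every library were common in the table. Whether the 1 here is a measured count was not tested, and the size of the ratio, interval and fold change depends on it. The row FZD8 held 1805, 1579 and 1463 counts in the controls, 16 and 20 in knockdown 1 and 2, and 3652 in the library labelled knockdown 3. It thus fell with MIR4683 in knockdown 1 and 2 (log2 fold change -7.11, SE 0.17, adjusted p = 0.00758), and stood above every control in the library labelled knockdown 3, where MIR4683 stayed at 1.

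The loci miR-4453 and MIR4453HG moved in opposite directions inside the same GeneID. MIR4453HG, the host transcript on chromosome 4, stood at 0.493, 0.396 and 1.03 CPM in control 1, 2 and 3, at 7.10 and 5.07 in knockdown 1 and 2, and at 3.05 in the library labelled knockdown 3. All knockdown libraries lay above all controls, and over numbers 1 and 2 the host rose from 0.444 ± 0.068 to 6.09 ± 1.43 CPM (SD, n = 2), a log2 fold change of 3.76 (SE 0.32, adjusted p = 0.0172 by edgeR). MIR4453, which lies in an exon of that host, stood at 7.07, 5.94 and 7.20 CPM in the controls, at 1.19 and 0.767 in knockdown 1 and 2, and at 3.40 in the library labelled knockdown 3. All knockdown libraries lay below all controls, and the row fell by 2.74 on the log2 scale (SE 0.32, adjusted p = 0.0252 by edgeR). Summed over the GeneID, the counts were 215, 176 and 263 in the controls and 300, 274 and 275 in the knockdown libraries. The sum gave a log2 fold change of 0.02 (SE 0.26, adjusted p = 0.972 by edgeR), so the locus as a whole did not pass the test.

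MIR23A, on chromosome 19, heads a cluster with miR-27a and miR-24-2 in MIR23AHG, and miR-23a is known from muscle atrophy and glutamine metabolism. The row stood at 0.281, 0.360 and 0.438 CPM in control 1, 2 and 3, and at 1.16, 1.21 and 2.11 CPM in knockdown 1, 2 and the library labelled knockdown 3. In counts this was only 8, 10 and 14 in the controls and 42, 57 and 90 in the knockdown libraries. The groups did not overlap, and over numbers 1 and 2 the log2 fold change was 1.87 (SE 0.30, adjusted p = 0.0374 by edgeR). The host row MIR23AHG was far larger, with 334, 555 and 364 counts in the controls and 440, 1003 and 419 in the knockdown libraries. Its groups overlapped, and its log2 fold change was 0.07 (SE 0.42, adjusted p = 0.929 by edgeR). The sum over the GeneID gave 0.14 (adjusted p = 0.844 by edgeR). MIR27A and MIR24-2 held exactly 1 count in every library.

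MIR663AHG, the host transcript of miR-663a on chromosome 20, was the called host for which the row and the sum over its GeneID were alike. It stood at 0.422, 0.432 and 0.876 CPM in control 1, 2 and 3, and at 2.18 and 2.45 in knockdown 1 and 2. The library labelled knockdown 3 stood at 0.469, between control 2 and control 3. Over numbers 1 and 2 it rose from 0.427 ± 0.0071 to 2.32 ± 0.19 CPM (SD, n = 2), a log2 fold change of 2.42 (SE 0.25, adjusted p = 0.0217 by edgeR), and the sum with its MIR663A row, which held 2 to 5 counts a library, gave 2.26 (adjusted p = 0.0188).

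MIR3648-1 and MIR3648-2 lie on chromosome 21, the former inside the ribosomal RNA precursor gene RNA45SN2 in RefSeq, and neither shares a GeneID. They are copies of the same microRNA gene whose counts moved together, with a ratio between 1.02 and 1.14 in every library, and the table may split the same reads between them, so they count as 1 uncertain observation. MIR3648-1 stood at 3.80, 3.89 and 2.75 CPM in control 1, 2 and 3, at 9.59 and 11.6 in knockdown 1 and 2, and at 5.39 in the library labelled knockdown 3. All knockdown libraries lay above all controls, and the log2 fold change over numbers 1 and 2 was 1.45 (SE 0.19, adjusted p = 0.0291 by edgeR), beside 1.31 (SE 0.19, adjusted p = 0.0329) for MIR3648-2. Of mature ribosomal RNA, only the 5.8S rows were examined. They did not pass the test, with log2 fold changes of -0.18 to 0.53 over RNA5-8SN1 to RNA5-8SN5 and adjusted p-values of 0.414 or more by edgeR. What ribosomal RNA left in the libraries contributes to the MIR3648 rows was not tested.

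**Figure D2:**
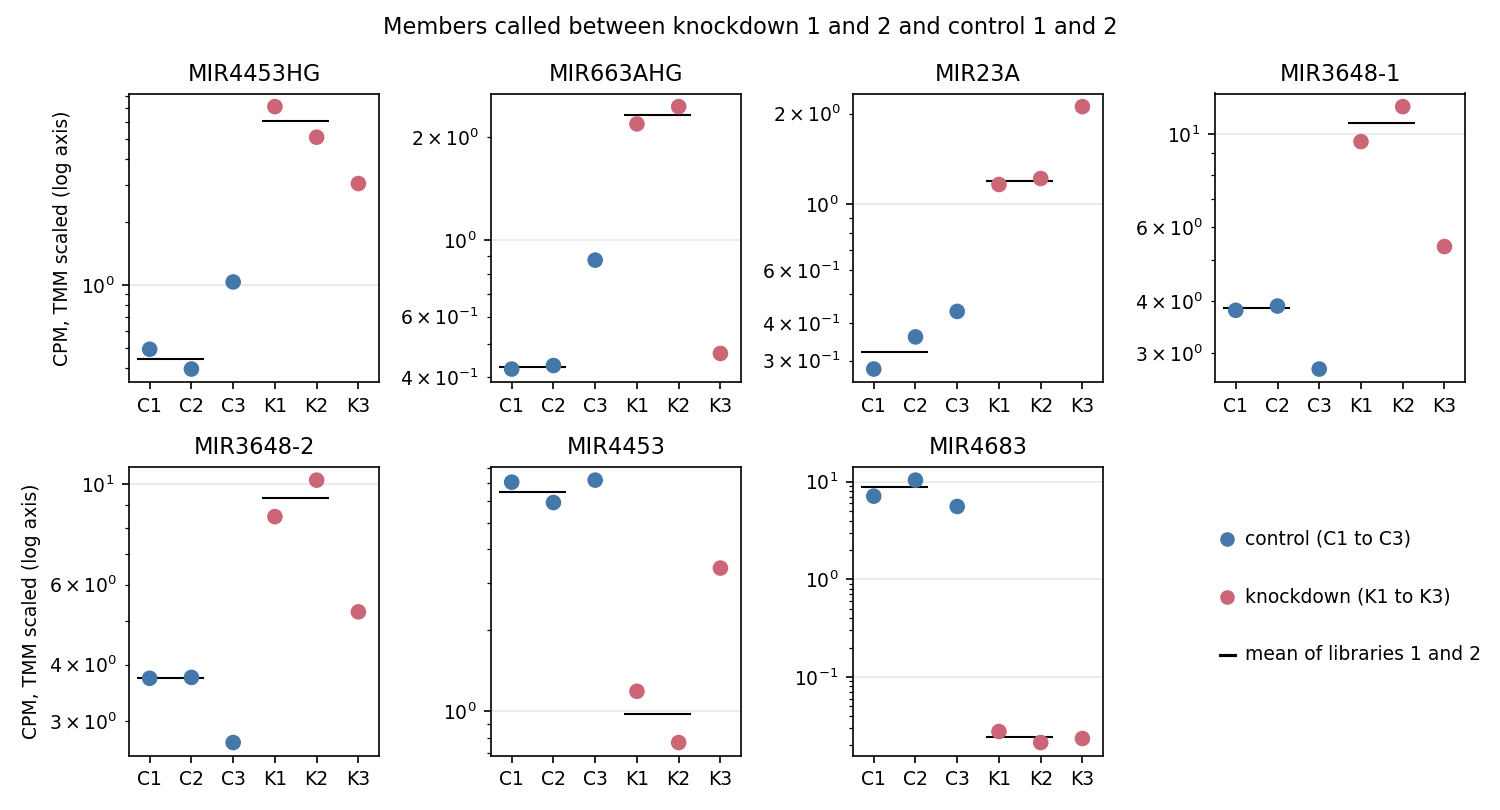
CPM after TMM scaling (log axis) of the 7 called members in control 1 to 3 (C1 to C3, blue) and knockdown 1 to 3 (K1 to K3, red), 1 point a library, with black bars at the mean of libraries 1 and 2 of each group. MIR663AHG in K3 lies at 0.469 CPM among the controls, and MIR4683 lies at 1 count in every knockdown library.

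Over all 6 libraries, 1 of the 57 members tested was called, beside 0.0065% of 15386 rows, which is that same row. MIR4683, at 1 count in every knockdown library, fell by 8.13 on the log2 scale (SE 0.45, adjusted p = 0.0213 by edgeR). FZD8 on the same GeneID had -0.94 (SE 1.79, adjusted p = 0.862), and the summed counts, 2007, 1867 and 1641 in the controls and 17, 21 and 3653 in the knockdown libraries, gave -1.13 (adjusted p = 0.824). The locus as a whole was not called over all 6 libraries. MIR4683 was not called without any of control 1, 2 or 3 or knockdown 1 or 2, and without the library labelled knockdown 3 it was called together with MIR4453, MIR4453HG and MIR3648-1. Unadjusted p-values under 0.05 were found for 11 of the 57 members and for 1267 of all rows. By levels alone, 10 of the 57 had every knockdown library above every control, beside 7.41% of all rows, and 4 had every knockdown library below, beside 6.56%. The former were MIR4453HG, MIR210HG, MIR503HG, MIR3936HG, MIR4713HG, MIR21, MIR23A, MIR4680 and the MIR3648 rows, and the latter MIR4683, MIR4453, MIR4426 and MIR3654. All of the former except the MIR3648 rows, which are copies, reached the count minimum for members within the knockdown libraries only. Of the latter, MIR4683 and MIR4426 reached it within the controls only. The selection thus favoured such rows, and these shares cannot be compared with those of all rows.

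The effect in number 3 minus that in numbers 1 and 2 was called for 1 of 57 members, beside 4.54% of all rows tested. This was MIR663AHG, with a difference of -3.33 on the log2 scale (SE 0.44, adjusted p = 0.0457 by edgeR), where the libraries of number 3 are assumed to vary like the others. It was not called with all rows kept (adjusted p = 0.0621) or with the library number as a block (adjusted p = 0.0988). MIR4453HG had -2.21 (adjusted p = 0.0895) and MIR4453 1.66 (adjusted p = 0.138), and neither passed the test.

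Several hairpin rows differed by 10-fold or more between libraries of the same group. Among rows tested over all 6 libraries this held for 8 of 32 microRNA loci and 0 of 25 host transcripts, beside 7.62% of all rows, where 501 of the 1173 rows counted had a library at 0. Of the 8, MIR21, MIR4680, MIR3652 and MIR4720 had a library at 1 count, so their swings rest on very low counts. The loci were not matched by level with all rows. The host MIR302CHG is not among the 25, since it did not pass the filter over all 6 libraries, and it ran from 0 to 133 counts within the knockdown group. MIR3658, in a noncoding or untranslated exon of the uridine kinase gene UCK2, held 538, 573 and 5 counts in control 1, 2 and 3, and 591, 7 and 823 in knockdown 1, 2 and the library labelled knockdown 3. The low values fell in control 3 and knockdown 2, while UCK2 itself stayed at 144 to 230 CPM in all libraries. MIR3615, in the NHERF1 gene of a membrane scaffold protein, held 3, 187 and 307 counts in the controls and 4, 386 and 319 in the knockdown libraries. Its low values fell in number 1 of both groups, and NHERF1 stayed at 79.9 to 115 CPM. MIR4647, in the sulfate donor transporter gene SLC35B2, held 31, 29 and 36 counts in the controls and 20, 979 and 12 in the knockdown libraries. Knockdown 2 alone was high, and SLC35B2 had its lowest level, 59.1 CPM, in that library. MIR3658, MIR3615 and MIR4647 had log2 fold changes of -1.27 (SE 1.80), 0.27 (SE 2.24) and 3.31 (SE 1.72), none of which passed the test (adjusted p = 0.680, 0.947 and 0.275 by edgeR).

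**Figure D3:**
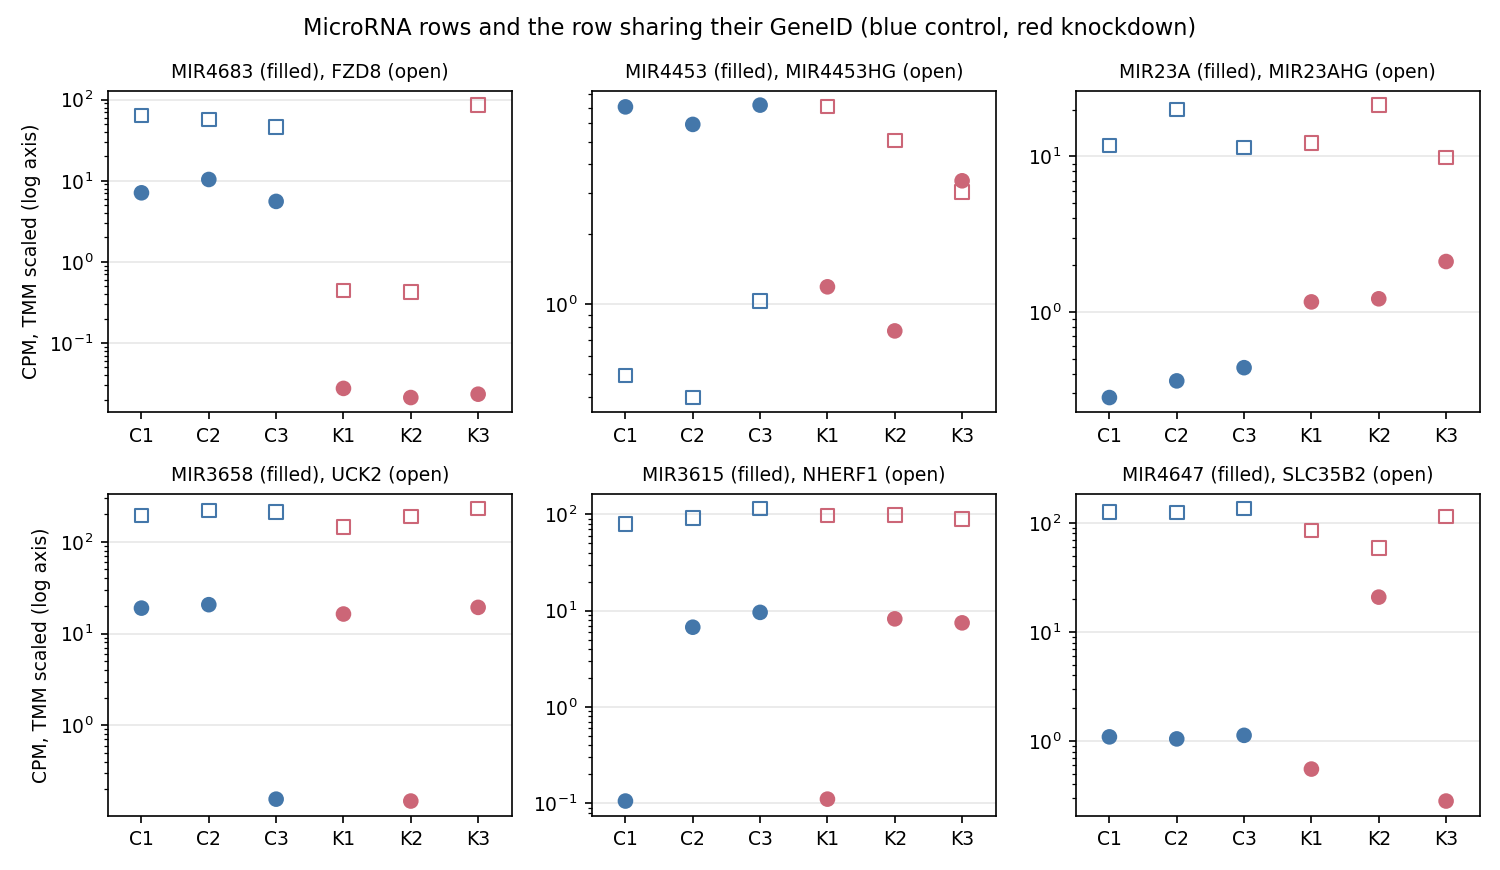
CPM after TMM scaling (log axis) in control 1 to 3 (blue) and knockdown 1 to 3 (red) for 6 microRNA rows (filled circles) and the row that shares their GeneID (open squares). FZD8 returns to 85.6 CPM in K3 while MIR4683 does not, the MIR4453 rows cross, and MIR3658, MIR3615 and MIR4647 swing by 10-fold or more within a group while their partners stay within 79.9 to 115 CPM for NHERF1, 144 to 230 for UCK2 and 59.1 to 135 for SLC35B2.

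Summing the rows of a GeneID changed which members were called. Of 44 members that share a GeneID and were tested both ways, 8 had the opposite sign as a sum and 13 differed by more than 1 on the log2 scale. As rows, 5 were called, and as sums 7, with MIR4683 and MIR663AHG called as both. Members on the same GeneID have the same sum and were each counted, so MIR29A and MIR29B1 among the 7 are the same fit. MIR4453, MIR4453HG and MIR23A were called as rows only. MIR137HG, MIR29A, MIR29B1, MIR4647 and MIR614 were called as sums only, in which the other row holds most of the counts.
MIR137HG, the host of the neuronal miR-137, had a log2 fold change of 0.70 as a row (adjusted p = 0.212) and -1.33 as a sum (adjusted p = 0.0369) with DPYD, which breaks down pyrimidines and fell by 1.61 on the log2 scale (adjusted p = 0.0424). MIR614 lies in GPRC5A, an orphan receptor, and the row had 0.78 (adjusted p = 0.129) beside 0.75 for GPRC5A (adjusted p = 0.0311) and 0.76 for the sum (adjusted p = 0.0255, all by edgeR).

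**Figure D4:**
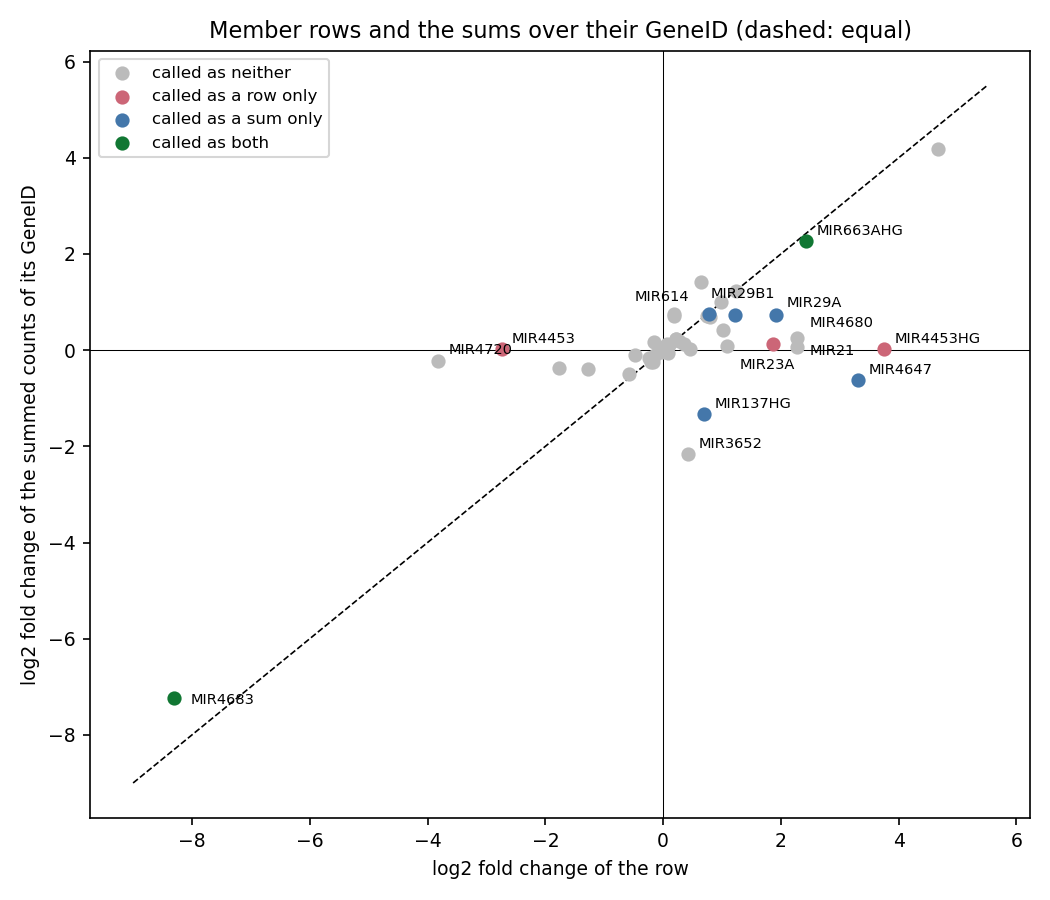
Log2 fold change of the row (horizontal axis) against that of the summed counts of its GeneID (vertical axis), knockdown 1 and 2 over control 1 and 2, for the 44 members that share a GeneID and were tested both ways, with the dashed line at equal values. MIR4453 and MIR4453HG lie on opposite sides at a sum of 0.02, MIR663AHG lies near the line, and MIR4683 lies above it at -8.31 as a row and -7.23 as a sum.

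The let-7 hosts did not pass the edgeR test, and DESeq2 called MIRLET7BHG between knockdown 1 and 2 and control 1 and 2. MIRLET7BHG, which carries let-7a-3 and let-7b, stood at 5.21, 4.75 and 8.35 CPM in control 1, 2 and 3, at 8.20 and 8.65 in knockdown 1 and 2, and at 5.60 in the library labelled knockdown 3. Control 3 lay between knockdown 1 and knockdown 2, and over numbers 1 and 2 the log2 fold change was 0.75 (SE 0.17, adjusted p = 0.0661 by edgeR), beside 0.77 by DESeq2 (adjusted p = 0.0226). Its hairpin row MIRLET7A3 held 12, 13 and 12 counts in the controls and 16, 27 and 16 in the knockdown libraries, a log2 fold change of 0.19 (adjusted p = 0.743). MIRLET7A1HG, which carries let-7a-1, let-7f-1 and let-7d, stood at 0.970 to 2.96 CPM in the controls and at 2.46 to 3.54 CPM in the knockdown libraries, with overlapping groups and a log2 fold change of 0.23 (SE 0.25, adjusted p = 0.576 by edgeR). LIN28A had at most 4 counts in any library and LIN28B, the other inhibitor of let-7 maturation, was at 0 in all, which allows up to 3 counts a library.

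Among growth-promoting microRNAs, MIR17HG, the host of the miR-17-92 cluster, stood at 1.69, 0.865 and 1.38 CPM in the controls and at 2.73, 2.26 and 1.52 CPM in the knockdown libraries. The library labelled knockdown 3 lay below control 1, and the log2 fold change over numbers 1 and 2 was 0.96 (SE 0.40, adjusted p = 0.198 by edgeR). MIR21 held 10, 1 and 1 counts in the controls and 34, 46 and 29 in the knockdown libraries. All knockdown libraries lay above all controls, but control 1 and control 2 differed widely, and the log2 fold change was 2.27 (SE 0.83, adjusted p = 0.158). VMP1, the autophagy gene that holds miR-21 in an exon, stayed at 100 to 138 CPM (log2 fold change 0.06, adjusted p = 0.679). MIR222HG, the host of miR-221 and miR-222, stood at 7.10 to 10.1 CPM in the controls and 8.27 to 12.2 CPM in the knockdown libraries (log2 fold change 0.23, adjusted p = 0.455). MIR210HG, the host of the hypoxia microRNA miR-210, held 7, 4 and 12 counts in the controls and 22, 25 and 18 in the knockdown libraries (log2 fold change 1.52, SE 0.42, adjusted p = 0.0973 by edgeR).

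The rows of the miR-29 family, whose targets include collagens, lay in the noncoding gene LINC-PINT. MIR29A held 8, 4 and 7 counts in the controls and 29, 39 and 8 in the knockdown libraries, and MIR29B1 held 19, 7 and 8 against 42, 48 and 11. In both rows knockdown 1 and 2 were high and the library labelled knockdown 3 lay among the controls. The log2 fold changes were 1.91 (adjusted p = 0.0639) and 1.23 (adjusted p = 0.200), beside 0.68 for LINC-PINT (adjusted p = 0.0586) and 0.73 for the sum (adjusted p = 0.0498, all by edgeR). MIR29B2CHG, host of the other copies, held 28, 5 and 8 counts in the controls and 28, 11 and 20 in the knockdown libraries, with overlapping groups (log2 fold change -0.24, SE 1.02).
MIR4426, whose seed miR-4647 shares, lies in the ribosomal protein pseudogene RPS27AP5 and held 29, 42 and 26 counts in the controls and 12, 19 and 27 in the knockdown libraries. Its log2 fold change was -1.77 (SE 0.35, adjusted p = 0.0529), beside -0.27 for RPS27AP5 (adjusted p = 0.594 by edgeR).

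The 12 rows with the highest mean CPM held 8 host transcripts, and edgeR called none of the 12 as a row in any comparison. Their order is by counts and not by level per length. MIR3654, in the CHCHD3 gene of a mitochondrial inner membrane protein, led with 54.6 to 85.5 CPM. Control 3 was its highest library, and its log2 fold change was -0.14 (SE 0.10, adjusted p = 0.397). MIR4435-2HG, a long noncoding RNA on a locus with the cell cycle gene ANAPC1, stood at 50.4, 54.6 and 43.1 CPM in the controls, at 69.1 and 66.4 in knockdown 1 and 2, and at 39.5 in the library labelled knockdown 3 (log2 fold change 0.36, SE 0.10, adjusted p = 0.0994). MIR1915HG stood at 29.7 to 42.7 CPM and MIR1244-2 at 20.7 to 34.3 CPM over the 6 libraries. MIR1244-2, MIR1244-3 and MIR1244-4 are copies with the same 85-base hairpin, as is MIR1244-1 in PTMA, and MIR1244-2 held 10.5 to 13.6 times the counts of either copy in every library, so reads may have been split between them and their rows are uncertain. The rest of the 12 were MIR23AHG, MIR137HG, MIR614, MIR3658, MIR222HG, MIR22HG, MIRLET7BHG and MIR600HG. The log2 fold changes of MIR22HG and MIR600HG were 0.10 and -0.04 (adjusted p = 0.813 and 0.955).

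Of the other host transcripts, MIR302CHG held 0, 4 and 0 counts in the controls, 35 and 133 in knockdown 1 and 2, and 0 in the library labelled knockdown 3. It carries the miR-302 cluster and miR-367, known from pluripotent stem cells. Its log2 fold change over numbers 1 and 2 was 4.66 (SE 1.18, adjusted p = 0.0820 by edgeR), while DESeq2 called it (adjusted p = 0.00312). MIR302CHG reached the count minimum for members, and passed edgeR's filter on low counts, only through the knockdown libraries. Neither its fold change nor the DESeq2 call is therefore independent of that selection. MIR193BHG was the lowest host by fold change, with 2.18, 1.73 and 2.47 CPM in the controls and 0.994, 1.15 and 1.95 in the knockdown libraries (log2 fold change -0.87, adjusted p = 0.106). The whole set of 26 host transcripts reached from -0.87 to 4.66 on the log2 scale, with 2 called higher, 0 lower and 24 not called.

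Of the 42 genes listed for making and using microRNAs, 40 were tested, with 1 called higher, 1 lower and 38 not called, beside 7.15% of all rows called higher and 6.41% lower. The median log2 fold change was -0.25, beside 0.01 over all rows. XPO5, the nuclear exporter of hairpins, fell by 0.65 on the log2 scale (adjusted p = 0.0262), and TNRC6A, the scaffold that Argonaute binds in silencing, rose by 0.74 (adjusted p = 0.0405). HNRNPA1, which binds some primary microRNAs, had -0.37 (adjusted p = 0.0525), and DROSHA, the nuclear cutting enzyme, had -0.37 (adjusted p = 0.0679). By role, 1 of 14 processing and export genes, 0 of 6 dicing and loading genes, 1 of 10 silencing genes and 0 of 10 turnover genes tested were called by edgeR, and none over all 6 libraries, where the smallest adjusted p of the list was 0.581.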

How the data were processed

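RNA-seq counts of 3 control and 3 knockdown libraries were analysed. The counts were deposited by the authors as whole numbers per gene row, made per the labels with FastQC, STAR and StringTie. The genome build, the annotation and the versions of these tools were not given in the sources used here, and coordinates were left out. Every column of values was used. Of 42540 rows, 159 exact repeats of the same symbol and counts were left out.

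All rows were fitted with edgeR 4.0.16 in R 4.3.3, after filterByExpr and TMM scaling. They were tested by quasi-likelihood with Benjamini-Hochberg adjustment at 0.05, and member rows were read from that fit. The fit was also run on simulated data, with the same dispersion for all rows and changes only in rows of higher level. That setting differs from many members, so it does not show how the fit performs on low or widely varying rows. The CPM printed use TMM over all 6 libraries, and SEs derive from the F statistic. DESeq2 1.42.0, other scalings, no filter, a block for the library number, counts summed per GeneID and each library left out were run beside it. Total counts per library set the precision, and intervals cover counting error only. These p-values reflect no more than the variation among the libraries, which come from the same cell populations.

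Named were all called rows and the rows on their GeneIDs, the 12 rows with the highest mean CPM, the let-7 and miR-17-92 hosts, and the other hosts in counts. MIR21, MIR29A, MIR29B1, MIR29B2CHG, MIR210HG, MIR302CHG, MIR193BHG, MIR3615, MIR4647, MIR4426, MIR4680, MIR1244-3, MIR1244-4 and the genes around uncalled hairpins were named after their values were seen. The members and lists were chosen with earlier results of these data known. Sequences are from RefSeq (33 of 35 loci had an own mature sequence), and places in genes from GENCODE release 29.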

Additional observations from a re-analysis of the deposited data

Results flagged for a closer look

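MIR663AHG differed between the library numbers. Its knockdown effect in number 3 minus that in numbers 1 and 2 came to a log2 difference of -3.33 and an adjusted p of 0.0457 by edgeR's interaction test, with knockdown above control in numbers 1 and 2 and below it in number 3. PPP2R1A moved the opposite way, at 143 CPM in knockdown 1 and 2 and at 545 CPM in the library labelled knockdown 3. Control 3 stood at 0.876 CPM, above control 1 and 2 at 0.422 and 0.432. The study places the weaker knockdown at its latest time point and in the higher passage. Time in culture and the weaker knockdown cannot be told apart here, and the part of either in the difference was not tested.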

How the results depend on the processing

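The 5 members called higher and 2 lower were called by RLE factors, by library size alone and without the filter on low counts, and DESeq2 called 7 and 3. Summed per GeneID, 8 were called higher and 3 lower, with MIR29A and MIR29B1, which have the same sum, both counted. With the replicate block, 0 and 0 were called (of all rows too, 5162 having an unadjusted p under 0.05), and without any 1 of the 4 libraries 0 to 0 for either direction (0 of all rows, 3377 to 4797 having an unadjusted p under 0.05). With knockdown 3 alone left out of the 6, 2 were higher and 2 lower. Over all 6 libraries 1 member was called, against 4 by DESeq2, 0 with the replicate block, 0 per GeneID, and 0 to 4 without 1 library. The interaction gave 1 member, 0 without the filter, 0 with the replicate block and 2 per GeneID. The causes were not tested. Over all rows, 2114 calls became 3294 with DESeq2, 1380 without the filter and 704 with knockdown 3 alone left out, 1 call over all 6 libraries became 225 with DESeq2 and 704 without knockdown 3, and 699 interaction calls became 2192 with DESeq2, 378 without the filter and 0 with the block.

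As sums per GeneID, the log2 fold change of MIR4453 turned to 0.017, of MIR137HG to -1.33 and of MIR4647 to -0.62. Members not called changed sign 56 times in 20 of 51 members. Of the 7 called members, all kept their direction under the other settings of numbers 1 and 2. Minus the median of the 100 nearest tested genes, a choice made after seeing the data, MIR4683 stood at -7.83, and the other 6 moved by less than their SE. The deviations of same-numbered libraries from their group means did not go together (correlations -0.0182, -0.0324 and -0.122), and 0 control and 0 knockdown libraries correlated best with their own number, so the replicate block is an alternative only. Low counts limit most members, whose median total was 348 over 6 libraries.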
